A study of Mus musculus with 11 samples.

Results

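The 10 genes described here encode heat shock proteins and their helpers: Hspa1a, Hspa1b and Hspa8 of the HSP70 family, Hsph1 of the HSP110 family, the J-domain protein Dnajb1, the cochaperone Bag3, Hsp90aa1, the small heat shock protein Hspb1, and the chaperonin pair Hspd1 and Hspe1. They were chosen by gene symbol, as chaperones known to be driven by heat shock factor 1 (HSF1), and make up 10 of the 46202 rows of the table. They, and the gene lists set beside them, were chosen with earlier results of these data known. All 10 had a value in every library. The group was labelled cytosolic, but Hspd1 (HSP60) and Hspe1 (HSP10) work in the mitochondrial matrix. They are described separately, but counts and means over the 10 genes include them.

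RNA of the hippocampus of male C3-C57B1/6J mice, 2 to 3 months old and housed singly, was sequenced as stranded total RNA in 11 libraries. Insulin at 2.4 IU per nare was given through the nose. The hippocampus was taken 15 min (2 libraries, replicates 1 and 3), 1 h (3 libraries) or 6 h (3 libraries) afterwards. No replicate 2 of 15 min is among the 11 libraries. The controls were 3 libraries from mice that the titles call saline controls and the treatment label calls untreated, all at 0 min; they are called saline here. Mice of every group were anaesthetised with isoflurane before the brain was removed. Because all saline libraries are of 0 min, the effect of insulin and that of time since dosing and handling cannot be told apart.

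HSF1 is held inactive by chaperones in unstressed cells. When unfolded proteins or other stress draw the chaperones away, HSF1 assembles on heat shock elements, which are inverted repeats of the bases GAA, and transcription of chaperone genes increases quickly. HSP70 proteins bind unfolded stretches of protein and cycle with ATP; J-domain proteins start that cycle, and HSP110 proteins and BAG proteins end it by releasing the nucleotide. In brain, Hspa8 is made constantly and takes part in clathrin uncoating at synapses, while Hspa1a and Hspa1b are the classic inducible pair.

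The promoters of the strongly inducible members are shown first, since heat shock elements are known to lie in such regions. In the RefSeq annotation of GRCm38.p6, Hspa1a lies on chromosome 17 from 34969359 to 34972156 and Hspa1b from 34956429 to 34959238, both on the minus strand. The 250 bases before each start site follow, 5′ to 3′ on the gene's strand, with matches to GAANNTTC or TTCNNGAA in capitals. Hspb1 (chromosome 5, 135887919 to 135889563) is added because its window holds such a match at 2 places, and Dnajb1 (chromosome 8, 83608175 to 83612653, plus strand) because it had the smallest p-values in the results that follow and its window holds no match.
Hspa1a, chr17:34972157-34972406, minus strand: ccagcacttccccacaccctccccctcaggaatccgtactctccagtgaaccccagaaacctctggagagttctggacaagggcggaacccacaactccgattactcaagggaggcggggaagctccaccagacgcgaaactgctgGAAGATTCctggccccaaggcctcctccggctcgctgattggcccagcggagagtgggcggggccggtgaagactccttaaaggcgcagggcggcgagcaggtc
Hspa1b, chr17:34959239-34959488, minus strand: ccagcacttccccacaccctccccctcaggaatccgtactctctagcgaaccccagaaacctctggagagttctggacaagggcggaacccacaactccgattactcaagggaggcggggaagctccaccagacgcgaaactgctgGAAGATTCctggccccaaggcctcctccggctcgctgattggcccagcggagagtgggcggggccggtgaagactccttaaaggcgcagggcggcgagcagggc
Hspb1, chr5:135887669-135887918, plus strand: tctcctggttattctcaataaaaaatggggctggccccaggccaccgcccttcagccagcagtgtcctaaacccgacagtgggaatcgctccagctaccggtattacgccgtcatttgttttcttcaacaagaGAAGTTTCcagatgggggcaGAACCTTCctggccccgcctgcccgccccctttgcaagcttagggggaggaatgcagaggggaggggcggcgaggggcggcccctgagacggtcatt
Dnajb1, chr8:83607925-83608174, plus strand: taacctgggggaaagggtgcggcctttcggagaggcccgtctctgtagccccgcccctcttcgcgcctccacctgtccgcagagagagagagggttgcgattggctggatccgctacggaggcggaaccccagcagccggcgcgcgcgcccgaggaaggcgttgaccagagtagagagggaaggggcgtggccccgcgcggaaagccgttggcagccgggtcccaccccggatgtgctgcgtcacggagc
The Hspa1a and Hspa1b windows were identical at 247 of 250 bases (98.8%). Their 3 differences, counted from 1 at the 5′ end of the window with the Hspa1a base first, were C44T, T47C and T249G. GAAGATTC stood at the same place in both, from -104 to -97 relative to the start site. In Hspb1 the matches were GAAGTTTC, from -117 to -110, and GAACCTTC, from -97 to -90.

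Hspd1 (chromosome 1, 55077833 to 55088243, minus strand) and Hspe1 (55088148 to 55091317, plus strand) lie head to head and overlap by 96 bases. A run of 3 overlapping matches lies between the start sites at 55087932 (Hspd1) and 55088148 (Hspe1), and Hsph1 (chromosome 5, 149616843 to 149636498, minus strand) has 1 match close to its start; 30 bases of each are shown with the matches in capitals.
Hspd1 and Hspe1, chr1:55088053-55088082, plus strand: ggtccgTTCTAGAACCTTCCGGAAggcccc
Hsph1, chr5:149636351-149636380, minus strand: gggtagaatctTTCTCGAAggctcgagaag
Of the members, 8 had a window in the RefSeq promoter table (all but Hspa8 and Hsp90aa1). Both motif forms read the same on either strand, so each match covers both strands. At least 1 match was present in 6 of the 8 (Hspa1a, Hspa1b, Hspb1, Hsph1, Hspd1 and Hspe1), against 14.5% of the 27025 genes with a window and 12.8% of all 32851 windows. The members were listed as driven by HSF1, so this share is no test. The 6 are not independent, since the Hspa1a and Hspa1b windows are nearly identical and Hspd1 and Hspe1 share the run. Hspd1 has a further annotated start at 55088243, and the window before it held no match. Longer forms of 3 such units (GAA, TTC and GAA in that order, or TTC, GAA and TTC, each pair parted by NN) are reverse complements of each other. They overlap the shorter forms and were present for 2 of the 8, Hspd1 and Hspe1, which share the run. The longer forms were present in 0.514% of genes and 0.466% of windows. The windows of Dnajb1 and Bag3 (chromosome 7, 128523583 to 128546981) held none of these letters. A match in these letters is a description of the window and was not tied to binding in these mice.

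All values below are log2 signals as deposited, which were scaled so that every library has the same distribution. Whether they are scaled per gene length is not stated, so levels are compared within a gene and not between genes. In RNA of whole tissue, a lower signal from fewer cells of a type and one from less RNA per cell cannot be told apart.

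Summed signals of cell type and region markers also varied between libraries and groups. Of 7 markers of hippocampal neurons, the level varied widely for Neurod6, from -2.07 to 2.55, and their summed linear signal lay in the 15 min libraries between 7.31 and 11.9, in those of 1 h between 6.11 and 8.87, and in those of 6 h between 7.48 and 8.69, against 6.48 to 12.6 in saline. The sum of 7 markers of the neighbouring striatum ranged over 15.0 to 17.8 (15 min), 8.13 to 25.2 (1 h) and 9.02 to 16.2 (6 h), against 8.39 to 11.2 in saline. At 15 min, 5 of these 7 lay above saline in every library and 1 lay below it, against 6.86% and 31.6% of all genes. Blood vessel markers summed lower, with an overlap for endothelium at 6 h: 7 endothelial markers had sums of 8.61 to 10.7 (15 min), 9.35 to 10.4 (1 h) and 10.8 to 13.9 (6 h), against 11.2 to 17.0 in saline. For 7 pericyte and smooth muscle markers the sums were 8.25 to 9.41, 8.55 to 10.9 and 8.40 to 10.7 at the same times, against 11.6 to 12.3 in saline. General neuronal markers had sums of 54.0 to 61.2 (15 min), 55.5 to 58.0 (1 h) and 54.4 to 57.9 (6 h), against 58.8 to 61.4 in saline. For 7 choroid plexus markers the sums were 39.7 to 61.2 in saline and 27.9 to 133 at 15 min. They were 2.82 to 88.5 at 1 h and 1.03 to 23.5 at 6 h. At 6 h, 6 of these 7 lay below saline in every library, against 8.9% of all genes. No marker of these lists was missing in a library. The ribosomal RNA gene Rn18s-rs5 stood at 9.67 and 10.49 in the 15 min libraries, between 10.18 and 10.51 in those of 1 h, and between 11.04 and 12.19 in those of 6 h, against 13.05 to 16.00 in saline. The part of these markers and of ribosomal RNA in the results was not tested.

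The inducible HSP70 genes and Dnajb1 had higher mean signals than saline 15 min and 1 h after insulin and lay near saline at 6 h. In the comparison with saline over all genes (limma, Benjamini-Hochberg adjustment), no member passed an adjusted p of 0.05 at any time. Of all genes, 0.239% passed it at 15 min, 0.877% passed it at 1 h, and 0% passed it at 6 h. An unadjusted p under 0.05 with a higher signal was found for 3 of 10 members at 15 min (Hspa1b, Dnajb1 and Bag3), where 1.86% of all genes had one. At 1 h it was found for 4 of 10 (Hspa1a, Hspa1b, Dnajb1 and Hspb1), against 2.87% of all genes, and at 6 h for 0 of 10, against 2.75%. Every insulin library lay above every saline library for 8 of 10 members at 15 min (all but Hspa8 and Hspe1), where 6.86% of all genes did so. Such shares are over the 25771 kept genes with a value in every library. The number was 5 of 10 at 1 h (Hspa1a, Hspa1b, Hsph1, Dnajb1 and Bag3), against 6.29% of all genes, and 0 of 10 at 6 h, against 4.27%. The mean change from saline was above 0 in 10 of 10 members at 15 min, 10 of 10 at 1 h and 4 of 10 at 6 h. Over all genes it was above 0 in 8655 of 27653, 9209 of 27706 and 11915 of 27707 at the same times. An unadjusted p under 0.05 with a lower signal was found for 0 of 10 members at each time, against 13.2%, 12.8% and 4.23% of all genes at 15 min, 1 h and 6 h. Under cyclic loess scaling, Hspa8 at 1 h turned to -0.03. With libraries centred on the median of genes with a value in every library, Dnajb1 at 6 h turned to 0.006. That centring raised the 15 min changes of Hspa8, Hspe1, Hspd1 and Hsp90aa1 to 0.19, 0.19, 0.26 and 0.38. At 1 h it raised them to 0.14, 0.19, 0.28 and 0.30, so small changes depend on the scaling. The members' median log2 change was 0.41, 0.42 and -0.03 at 15 min, 1 h and 6 h, beside -0.14, -0.11 and -0.04 over all genes tested. The members were chosen with earlier results of these data known, so these shares and medians describe them and do not test the group.

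**Figure D1:**
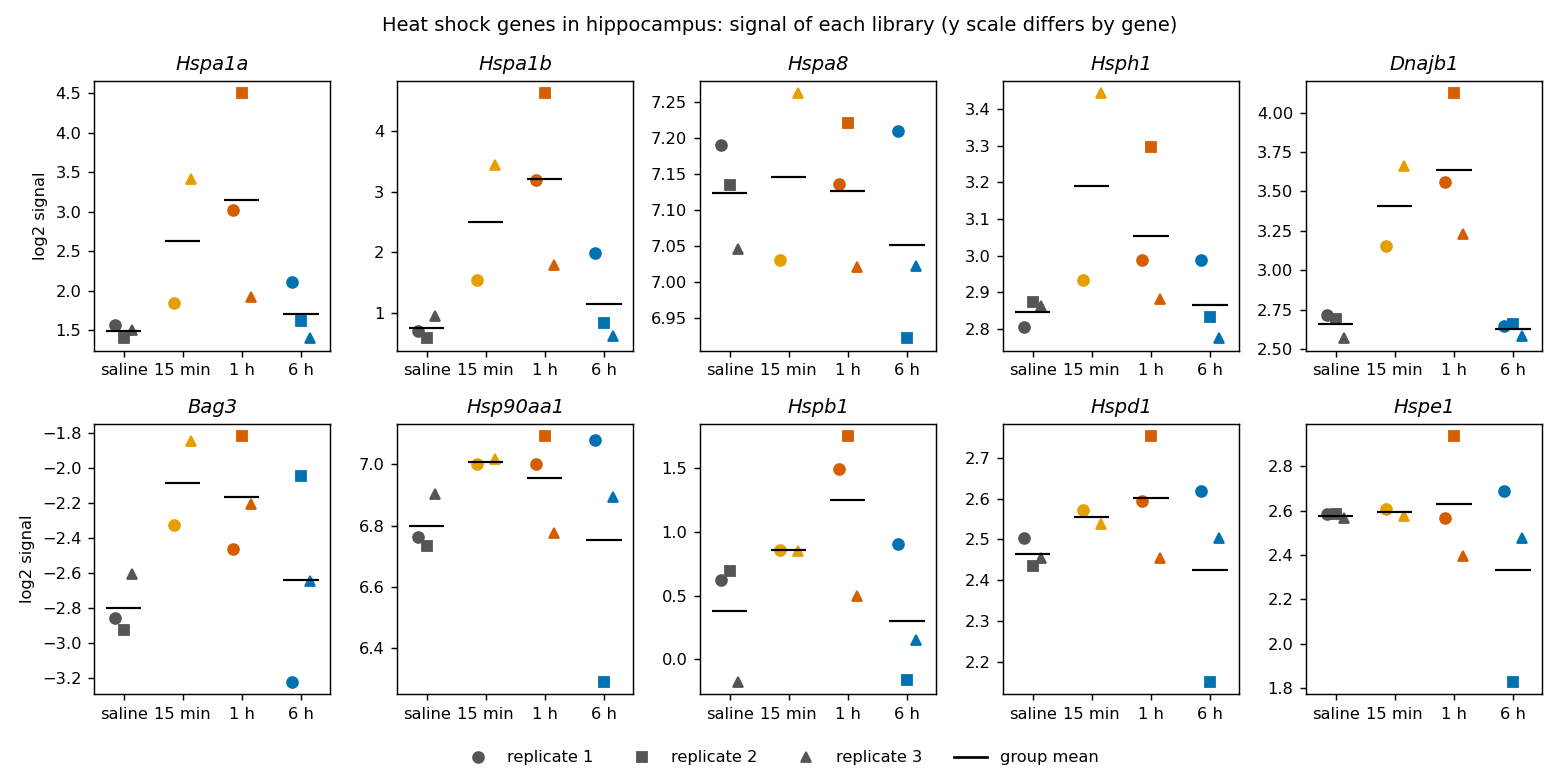
Deposited log2 signal (y axis, own scale for each gene) of the 10 heat shock genes in each library, by group (x axis: saline, then 15 min, 1 h and 6 h after insulin). Points are libraries, their shape the replicate number, and bars are group means. Hspa1a, Hspa1b and Dnajb1 spread widely within the 15 min and 1 h groups, and 1 h replicate 2 was the highest library for 8 of the 10 genes.

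Hspa1b, an inducible HSP70, had the widest range of the 10 genes, 4.06 on the log2 scale. Its log2 signal was 0.70, 0.57 and 0.94 in saline, 1.54 and 3.45 at 15 min, 3.19, 4.63 and 1.79 at 1 h, and 1.98, 0.84 and 0.62 at 6 h. All 5 libraries of the first hour lay above all saline libraries, whereas 1 of the 3 libraries at 6 h did. The log2 change was 2.47 (SE 0.68, a 5.54-fold higher signal) at 1 h, with an unadjusted p of 0.00473 and an adjusted p of 0.126. At 15 min it was 1.76 (SE 0.76, 3.38-fold), with an unadjusted p of 0.0444 and an adjusted p of 0.321. Its 95% interval ran from 0.95 to 3.99 at 1 h and from 0.05 to 3.46 at 15 min. At 6 h the change was 0.41 (SE 0.68, adjusted p 0.879), and it was -0.01 without replicate 1 of that group.

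Hspa1a, the near-identical neighbour of Hspa1b, had its 3 highest signals in the same libraries, 1 h replicate 2, 15 min replicate 3 and 1 h replicate 1. It stood at 1.57, 1.40 and 1.51 in saline, 1.85 and 3.42 at 15 min, 3.02, 4.50 and 1.91 at 1 h, and 2.11, 1.62 and 1.40 at 6 h. Again every library of 15 min and 1 h exceeded the highest saline library, while the 6 h libraries overlapped with saline. The change from saline was 1.65 (SE 0.57, 3.15-fold, adjusted p 0.203, unadjusted p 0.0160) at 1 h, and 0.98 without 1 h replicate 2. At 15 min it was 1.14 (SE 0.64, 2.20-fold, adjusted p 0.431), and this rested on replicate 3: without it the change was 0.35, and without replicate 1 it was 1.92. For Hspa1b the same 2 values at 15 min were 0.80 and 2.71. At 6 h the Hspa1a change was 0.22 (SE 0.57, adjusted p 0.926).

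Reads of Hspa1a and Hspa1b could be exchanged between them. Of the 50-base windows of their GENCODE vM21 transcripts, 58.8% of those of Hspa1a were also in Hspa1b and 62.3% of those of Hspa1b were also in Hspa1a. How the authors' counting shared such reads is not given in the sources used here, so the split between both genes is uncertain and their signals are not independent. The log2 difference Hspa1b minus Hspa1a, given only for how it varied over libraries, was not constant: -0.87, -0.83 and -0.57 in saline, -0.31 and 0.03 at 15 min, 0.17, 0.13 and -0.12 at 1 h, and -0.13, -0.78 and -0.78 at 6 h. It was -0.13 or higher in the 5 libraries with the highest Hspa1a signal and -0.31 or lower in the other 6.

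**Figure D2:**
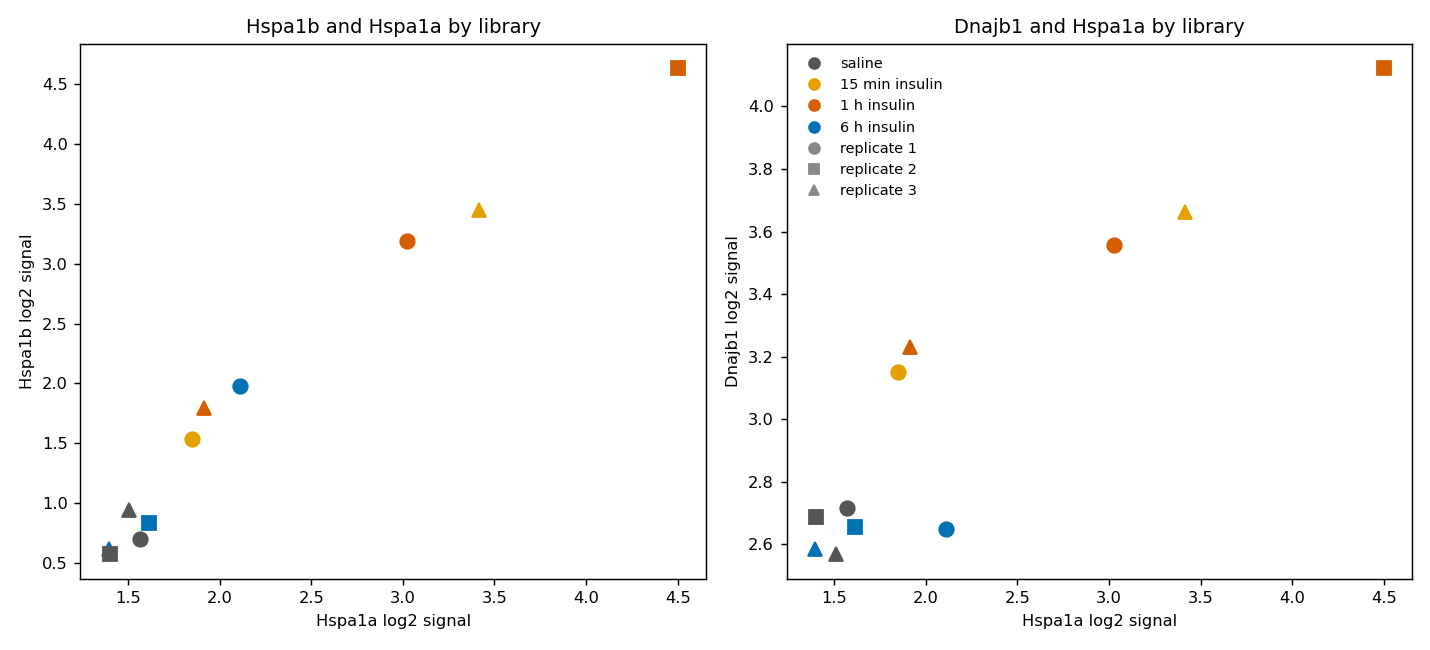
Log2 signal of Hspa1b (left, y axis) and of Dnajb1 (right, y axis) against that of Hspa1a (x axis) in the 11 libraries; colour gives the group and shape the replicate number. The 3 libraries with the highest Hspa1a signal were also the 3 highest for Hspa1b and Dnajb1, with Dnajb1 at 4.12 in 1 h replicate 2.

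Hspa8, the constitutive HSP70, showed no such spread. It was at 7.19, 7.14 and 7.05 in saline, 7.03 and 7.26 at 15 min, 7.14, 7.22 and 7.02 at 1 h, and 7.21, 6.92 and 7.02 at 6 h. The groups overlapped at every time, and the whole range over 11 libraries was 0.34. Its log2 change was 0.02 (95% interval -0.25 to 0.29) at 15 min, 0.00 (-0.24 to 0.24) at 1 h and -0.07 (SE 0.11) at 6 h. Adjusted p-values were 0.948, 0.995 and 0.862. With libraries centred on their medians, the changes of Hspa8 at 15 min and 1 h were 0.19 and 0.14. The gene (chromosome 9, 40801276 to 40805202) hosts the small nucleolar RNA genes Snord14c, Snord14d and Snord14e, whose reads may add to its signal.

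Dnajb1, a J-domain protein that starts the HSP70 cycle on unfolded substrates, had the smallest p-value of the 10 at 15 min and at 1 h. Its log2 signal was 2.72, 2.69 and 2.57 in saline, 3.15 and 3.66 at 15 min, 3.56, 4.12 and 3.23 at 1 h, and 2.65, 2.66 and 2.59 at 6 h. The lowest library of the first hour was above the highest of saline and of 6 h, and the 6 h values lay within the range of saline. At 1 h the change was 0.98 (SE 0.20, 1.97-fold, unadjusted p 0.000568), with an adjusted p of 0.0567, just outside the threshold. Without 1 h replicate 3, the lowest of that group, the change was 1.18 and the adjusted p 0.0324. Over all alternatives run, its adjusted p at 1 h ranged from 0.0324 to 0.202. At 15 min the change was 0.75 (SE 0.22, 1.68-fold, unadjusted p 0.00683, adjusted p 0.182) and 0.49 without replicate 3 of that group, and at 6 h it was -0.03 (SE 0.20, adjusted p 0.974).

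Hsph1, an HSP110 that acts as a nucleotide exchange factor for HSP70, was at 2.81, 2.87 and 2.86 in saline, 2.93 and 3.44 at 15 min, 2.99, 3.30 and 2.88 at 1 h, and 2.99, 2.83 and 2.77 at 6 h. All libraries of 15 min and 1 h exceeded saline, but 15 min replicate 1 and 1 h replicate 3 did so by little, and 6 h overlapped with saline. The change was 0.34 (SE 0.15, 1.27-fold, adjusted p 0.332) at 15 min, where it was 0.09 without replicate 3. It was 0.21 (SE 0.14, adjusted p 0.512) at 1 h, where it was 0.09 without replicate 2, and 0.02 (adjusted p 0.976) at 6 h.

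Bag3, which joins HSP70 to small heat shock proteins and hands clients to autophagy, had a low signal on this scale. The values were -2.85, -2.93 and -2.61 in saline, -2.32 and -1.85 at 15 min, -2.46, -1.82 and -2.21 at 1 h, and -3.22, -2.05 and -2.64 at 6 h. Both earlier groups lay above saline in full, and the 6 h group held both the lowest value of all and one above every saline library. The log2 change was 0.71 (SE 0.32, 1.64-fold, unadjusted p 0.0495, adjusted p 0.330) at 15 min and 0.63 (SE 0.29, 1.55-fold, unadjusted p 0.0503, adjusted p 0.320) at 1 h. With an offset of 1 added on the linear scale, these changes were 0.11 and 0.10, because the signal of Bag3 is below that offset. Without 15 min replicate 3, the 15 min change was 0.47. At 6 h the change was 0.16 (SE 0.29, adjusted p 0.886).

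Hspb1, the small heat shock protein known as HSP25 in mouse, binds unfolding proteins without using ATP. Its log2 signal was 0.62, 0.69 and -0.17 in saline, 0.86 and 0.85 at 15 min, 1.495, 1.75 and 0.50 at 1 h, and 0.90, -0.16 and 0.15 at 6 h. Saline replicate 3 and 6 h replicate 2 were the lowest, and 1 h replicate 3 lay within saline, so the 1 h and saline groups overlapped, while both 15 min libraries lay above saline. The change was 0.48 (SE 0.41, 1.39-fold, adjusted p 0.603) at 15 min and 0.87 (SE 0.36, 1.82-fold, unadjusted p 0.0378, adjusted p 0.284) at 1 h. Without saline replicate 3 the 15 min change was 0.20. At 6 h it was -0.08 (SE 0.36, adjusted p 0.956), and its sign turned when saline replicate 1, saline replicate 2 or 6 h replicate 2 was left out (0.04, 0.07 and 0.15).

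Hsp90aa1, the stress-responsive cytosolic HSP90 (chromosome 12, 110691036 to 110696395), was at 6.76, 6.73 and 6.90 in saline, 6.999 and 7.02 at 15 min, 7.0, 7.09 and 6.78 at 1 h, and 7.08, 6.29 and 6.89 at 6 h. The 15 min libraries were both above saline, the 1 h libraries overlapped with it, and 6 h replicate 2 lay far below the other 10 libraries. Its log2 change was 0.21 (SE 0.20, adjusted p 0.646) at 15 min and 0.16 (SE 0.18, adjusted p 0.723) at 1 h. At 6 h it was -0.05 (SE 0.18, adjusted p 0.950), and 0.19 without replicate 2 of that group.

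The chaperonin genes Hspd1 and Hspe1, whose products form the folding chamber of the mitochondrial matrix and its lid, had small mean differences from saline. Hspd1 was at 2.50, 2.44 and 2.46 in saline, 2.57 and 2.54 at 15 min, 2.59, 2.75 and 2.46 at 1 h, and 2.62, 2.15 and 2.50 at 6 h. Hspe1 was at 2.58, 2.58 and 2.56 in saline, 2.61 and 2.57 at 15 min, 2.57, 2.93 and 2.39 at 1 h, and 2.69, 1.83 and 2.47 at 6 h. In both genes 1 h replicate 2 was the highest library and 6 h replicate 2 the lowest; only Hspd1 at 15 min did not overlap with saline. The changes of Hspd1 were 0.09 (SE 0.13), 0.14 (SE 0.12) and -0.04 (SE 0.12) at 15 min, 1 h and 6 h, with adjusted p-values of 0.776, 0.619 and 0.933. Those of Hspe1 were 0.01 (SE 0.22), 0.06 (SE 0.20) and -0.25 (SE 0.20), with adjusted p-values of 0.982, 0.927 and 0.764. Without 6 h replicate 2 the 6 h changes were 0.10 for Hspd1 and 0.01 for Hspe1. Reads may be shared with other loci, since 7 pseudogene or related symbols of Hspe1 are in the annotation and in the table, and 5 of Hspd1 are in the annotation.

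**Figure D3:**
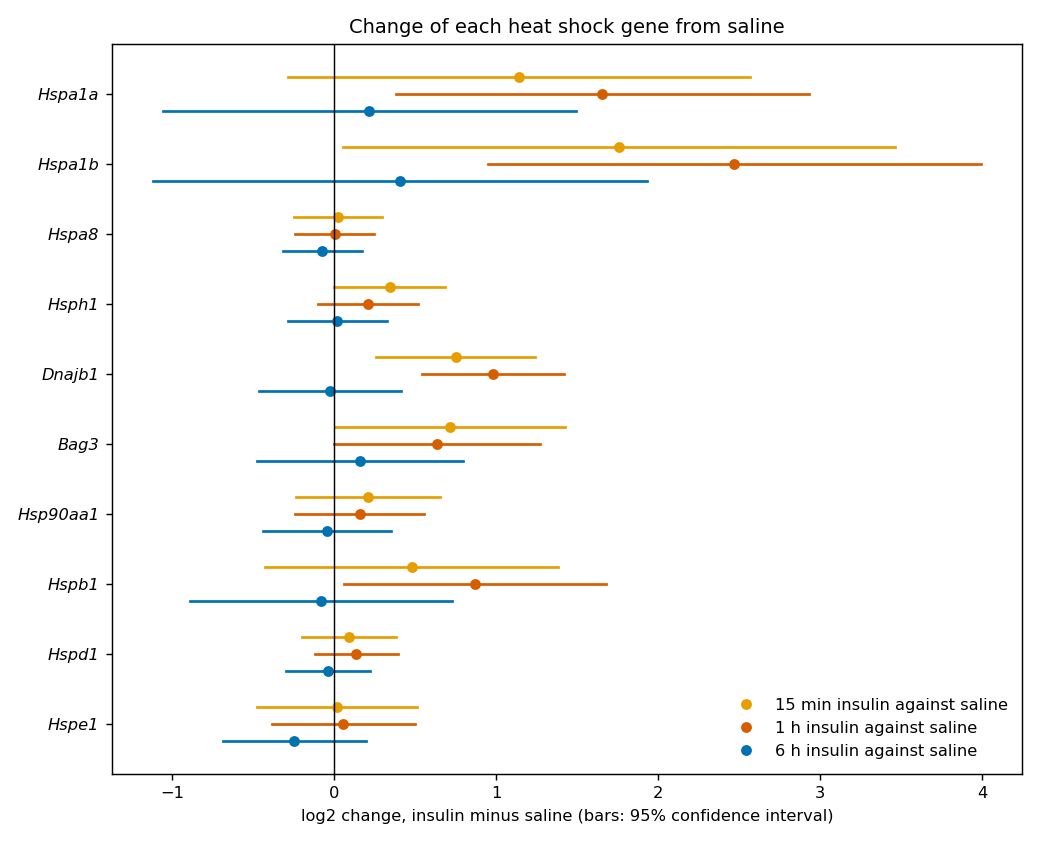
Log2 change of each heat shock gene from saline (x axis, insulin minus saline) at 15 min, 1 h and 6 h, with the 95% confidence interval of the limma fit as bars; the vertical line marks no change. The intervals of Hspa1a, Hspa1b, Dnajb1 and Hspb1 lay above 0 at 1 h, and every interval at 6 h spanned 0; no change passed the threshold over all genes.

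Between insulin times, the order of group means from high to low was 1 h, 15 min, 6 h and saline for Hspa1a and Hspa1b, and 1 h, 15 min, saline and 6 h for Dnajb1 and Hspb1. The 1 h and 15 min groups, neighbours in that order, overlapped for each of these 4 genes, and no member passed the threshold between them (adjusted p 0.9998 for all 10, with 0 of 10 under an unadjusted p of 0.05; 0% of all genes passed). The log2 difference of 6 h minus 1 h was below 0 in 10 of 10 members, against 10288 of 27701 of all genes. It was -1.01 for Dnajb1 (SE 0.20, unadjusted p 0.000464, adjusted p 0.157), and all 3 libraries at 6 h lay below all 3 at 1 h. For Hspa1b it was -2.06 (SE 0.68, adjusted p 0.302), for Hspa1a -1.44 (SE 0.57, adjusted p 0.386) and for Hspb1 -0.95 (SE 0.36, adjusted p 0.364). These 4 of 10 had an unadjusted p under 0.05 with a lower signal at 6 h, as did 2.17% of all genes, while no member and 0.0108% of all genes passed the adjusted threshold. Between the same groups, 7 blood markers (6 with a value in every library) summed to 64.2 to 80.7 at 6 h against 85.3 to 139 at 1 h, 6 ependymal markers to 3.31 to 4.13 against 4.48 to 4.63, and the endothelial markers were higher at 6 h, as given above. Choroid plexus markers summed to 1.03 to 23.5 at 6 h and 2.82 to 88.5 at 1 h, which overlap. Their part in the difference was not tested. Between 6 h and 15 min the difference of Dnajb1 was -0.78 (SE 0.22, unadjusted p 0.00555, adjusted p 0.218). No other member had an unadjusted p under 0.05 there, none passed the adjusted threshold, and 0.00723% of all genes did.

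With all 8 insulin libraries set against the 3 of saline, 8 members had a change above 0, as did 9003 of 27717 of all genes. The other 2 were below 0 (Hspa8 and Hspe1, which were above 0 with libraries centred on their medians). In 0 of 10 members every insulin library lay above every saline library, against 0.718% of all genes. The 3 highest were 1.52 for Hspa1b (SE 0.71, adjusted p 0.421), 0.99 for Hspa1a (adjusted p 0.485) and 0.54 for Dnajb1 (adjusted p 0.465). No member passed this comparison or had an unadjusted p under 0.05 in it, whereas 0.119% of all genes passed. In the F test over the 3 times, Dnajb1 had F 12.97 (unadjusted p 0.000872, adjusted p 0.0973) and Hspa1b F 5.50 (adjusted p 0.249). That test called 0 of 10 members and 0.365% of all genes.

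Libraries of 1 group differed from each other across the members. Averaged over the 10 genes, the log2 signal above the saline mean was 0.29 and 0.81 in the 2 libraries at 15 min, 0.68, 1.22 and 0.25 at 1 h, and 0.27, -0.14 and -0.05 at 6 h, against 0.03, -0.01 and -0.02 in saline. This average is unscaled, so genes of wide range weigh most. In 1 h replicate 2, Hspa1b and Hspa1a, which can share reads, stood 3.90 and 3.01 above their saline means, and Dnajb1 came next with 1.46. The 1 h replicate 2 library was above every saline library in 10 of 10 genes and the highest of all 11 in 8; Hspa8 and Hsph1 peaked in 15 min replicate 3. By contrast, 1 h replicate 3 was above every saline library in 5 genes and below every one in 2. Of the 6 h libraries, replicate 1 was above every saline library in 8 genes. Replicate 2 of that group was the lowest of all 11 for 4 (Hspa8, Hsp90aa1, Hspd1 and Hspe1). Shares of all genes were not computed for single libraries, so these counts describe the libraries and are no trait of the members. The ranges over 11 libraries were 4.06 for Hspa1b, 3.10 for Hspa1a, 1.92 for Hspb1, 1.55 for Dnajb1, 1.40 for Bag3 and 1.11 for Hspe1, and 0.80 or less for Hsp90aa1, Hsph1, Hspd1 and Hspa8.

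**Figure D4:**
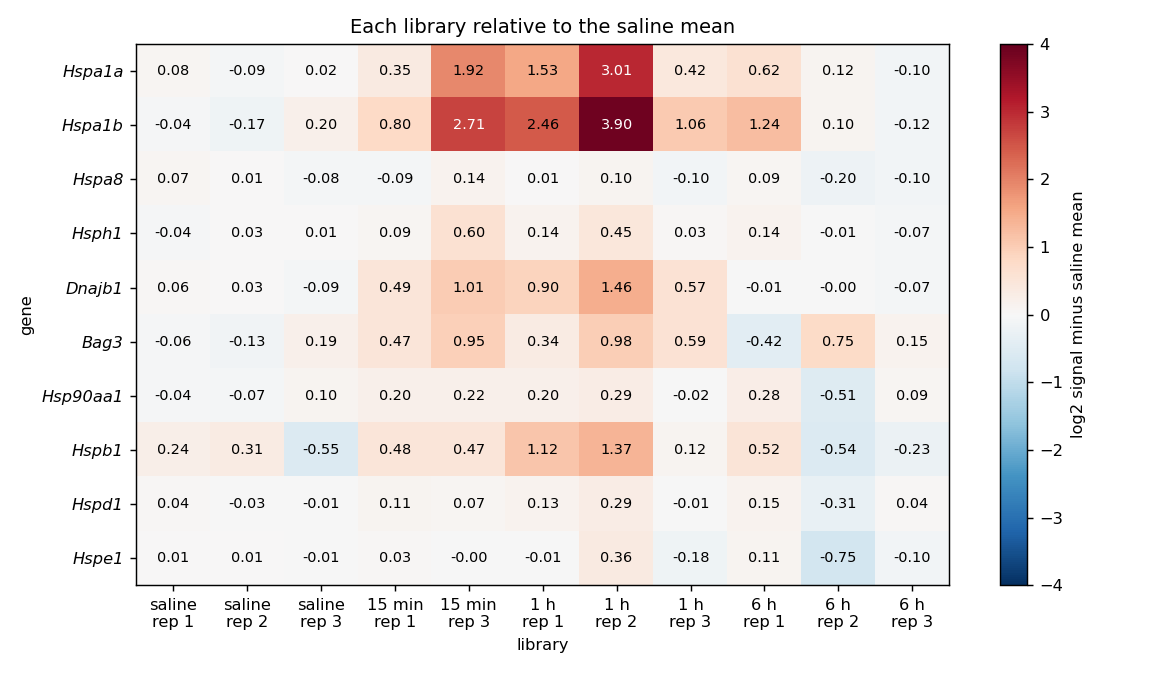
Log2 signal of each heat shock gene (rows) in each library (columns, by group and replicate) minus the gene's saline mean, as colour and number. The highest cells were Hspa1b and Hspa1a in 1 h replicate 2, and 6 h replicate 1 was above the saline mean for Hspa1b while 6 h replicates 2 and 3 were near it.

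Pairs of members varied together over the 11 libraries to different degrees. These are descriptions over libraries that share the groups and the authors' scaling. Pearson's r was 0.985 for Hspa1a with Hspa1b, which can share reads, and 0.979 when each library was taken as its deviation from its group mean. Dnajb1 followed Hspa1a (r 0.934, within groups 0.966) and Hspa1b (0.939, within groups 0.895). Other close pairs were Hspd1 with Hspe1 (0.944, within groups 0.989) and Hsp90aa1 with Hspd1 (0.941, within groups 0.946). In these genes 6 h replicate 2 stood far from the saline mean, at -0.75 (Hspe1), -0.51 (Hsp90aa1) and -0.31 (Hspd1). The part of that library in these r values was not tested. Bag3 went with Dnajb1 (r 0.715), Hspa1a (0.612), Hsph1 (0.588) and Hspa1b (0.584). With Hspb1 its r was 0.180, and with Hspd1, Hsp90aa1, Hspa8 and Hspe1 it lay between -0.156 and -0.024. Within groups its median r with the other members was -0.31.

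Outside the members, the 8 rows most like their mean pattern were Jmjd6 (r 0.951), Ahsa2 (0.944), Dnajb4 (0.923), Hsp25-ps1 (0.918), Znfx1 (0.913), Ptges3 (0.907), Pdia3 (0.899) and Noxred1 (0.897). The measure was Pearson's r over 11 libraries among 25761 rows, of which 6 were above 0.9. The mean pattern is unscaled, so Hspa1b and Hspa1a, the members of widest range, weigh most in it. Ahsa2 is related to the HSP90 activator Ahsa1, Dnajb4 is a J-domain relative of Dnajb1, Ptges3 is the HSP90 cochaperone p23, and Pdia3 is a disulfide isomerase of the endoplasmic reticulum. Hsp25-ps1 carries the other name of Hspb1 in its symbol and may take reads of that gene.

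Of 78 further chaperones and their regulators, in 9 lists, 77 had a row (all but Cct6a), and 0 of 77 passed the adjusted threshold against saline at any time. At 15 min, 2 had an unadjusted p under 0.05 with a higher signal and 5 with a lower one; at 1 h the counts were 11 and 6, and at 6 h 0 and 1. As shares of the 77 these are set against 1.86%, 2.87% and 2.75% of all genes with a higher signal, and 13.2%, 12.8% and 4.23% with a lower one. Their median log2 change was -0.02, 0.03 and -0.06 at the 3 times, beside -0.14, -0.11 and -0.04 over all genes. Every insulin library lay above every saline library for 19, 17 and 3 of the 77, against 6.86%, 6.29% and 4.27% of all genes. Every insulin library lay below every saline library for 27, 12 and 4 of them, against 31.6%, 21.8% and 8.9% of all genes.

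The endoplasmic reticulum list held 6 of the 11 with a higher signal at 1 h. Of its 15 genes, 10 lay above saline in every 1 h library, with a median change of 0.22. Over all genes, 2.87% had such a p, 6.29% lay above saline in that way, and the median change was -0.11. The list was chosen with earlier results of these data known, so its counts are no test. Creld2, a secreted disulfide isomerase of that compartment, had the smallest p of all 77: its change at 1 h was 0.60 (SE 0.13, adjusted p 0.0716). In the list of HSP70 cochaperones the smallest p was that of Dedd2 at 1 h (0.68, SE 0.18, adjusted p 0.107). Dedd2 is known as a DNA-binding protein with a death effector domain and not as such a cochaperone, so its place in that list is doubtful. Its signal was -0.43, -0.13 and -0.75 at 1 h against -1.005, -1.05 and -1.30 in saline. Both were outside the threshold, as were the rest.

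Cytosolic J-domain proteins were led by Dnajb4 at 1 h (0.27, SE 0.09, adjusted p 0.190), and HSP90 with its cochaperones by the kinase cochaperone Cdc37 at 15 min (-0.27, SE 0.07, adjusted p 0.164). For the mitochondrial list it was the HSP90 relative Trap1 at 1 h (-0.24, SE 0.07, adjusted p 0.144), and for the cytosolic chaperonin TRiC its subunit Cct2 at 1 h (-0.16, SE 0.07, adjusted p 0.303). The small heat shock proteins were led by Hspb8, a partner of Bag3, at 1 h (0.28, SE 0.15, adjusted p 0.410), and the other HSP70 genes by Hspa12b at 1 h (0.34, SE 0.14, adjusted p 0.285). Among heat shock factors the smallest p was that of Hsf1 itself at 6 h (0.18, SE 0.11, adjusted p 0.731).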

How the data were processed

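RNA of hippocampus was sequenced in 11 libraries (insulin 15 min 2, 1 h 3 and 6 h 3; saline 3). The authors deposited log2 signals per gene symbol; per the submitters' processing notes, bcl2fastq, Partek 6.7 and GRCm38 were used, in roles not given. From the values, the authors' table is quantile-normalized: each library has the same minimum (-13.64), median (-3.20) and maximum (16.00), over 32037 to 33653 of 46202 rows. Other entries are marked missing. The scaling was not undone, and counts of reads, and with them depth and counting error, are unknown. At most 0.0087% of rows were identical between any 2 libraries. Whether each library came from 1 animal is not said outright, so the spread behind the p-values may be partly technical.

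Rows in the lowest 40% by mean were dropped (27721 kept). Shares of all genes by p-value are over the kept rows tested. Shares of libraries above or below saline are over the 25771 kept rows with a value in every library. One limma fit (limma 3.58.1, R 4.3.3) of 4 groups gave two-sided moderated tests with a mean-variance trend, adjusted by Benjamini-Hochberg over all rows at 0.05. Insulin libraries together, and an F test over the 3 times, were also tested. The tests were also run on simulated data with independent normal noise for each gene. That setting holds no shift shared across a library, so it cannot check for such shifts in these data. The members and gene lists were chosen with earlier results of these data known. Named genes are the members, the gene with the smallest p in each other chaperone list, and the 8 rows most like the members' mean, passing over predicted and clone-named genes. Promoter sequences and coordinates are from RefSeq, GRCm38.p6. Alternatives were other scaling, filters and offset, 2-group fits, a replicate block, and each library left out.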

Additional observations from a re-analysis of the deposited data

How the results depend on the processing

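Members past the adjusted threshold numbered 0 in all comparisons and alternatives run, with 1 exception: Dnajb1 at 1 h, with a log2 change of 1.18 and an adjusted p of 0.0324 without 1 h replicate 3. Leaving out each library in turn, the count at 1 h was thus 0 to 1.

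The alternatives for members with every insulin library above every saline library were chosen after seeing the data. Their number was 5 to 8 at 1 h when 1 library was left out, and 8 without 1 h replicate 3. At 6 h the count was 0 to 1 (1 without 6 h replicate 2 or 3), and over all insulin libraries 0 to 1 (1 without 6 h replicate 3).

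Changes near 0 turned sign. Under cyclic loess scaling Hspa8 was -0.028 at 1 h. With libraries centred on the median of complete rows, Dnajb1 was 0.00635 at 6 h, and over all insulin libraries Hspa8 was 0.087 and Hspe1 0.040. When 1 library was left out, the ranges that crossed 0 were -0.0933 to 0.138 (Hspa8, 15 min), -0.00249 to 0.0321 (Hspe1, 15 min), -0.0451 to 0.0549 (Hspa8, 1 h) and -0.0962 to 0.174 (Hspe1, 1 h). At 6 h they were -0.0116 to 0.671 (Hspa1b), -0.0439 to 0.064 (Hsph1), -0.0724 to 0.00237 (Dnajb1), -0.13 to 0.45 (Bag3), -0.38 to 0.15 (Hspb1), -0.21 to 0.19 (Hsp90aa1), -0.425 to 0.00518 (Hspe1) and -0.137 to 0.0967 (Hspd1). Over all insulin libraries they were -0.0602 to 0.0126 (Hspa8) and -0.129 to 0.0293 (Hspe1). The cause of these turns was not tested.

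Same-numbered libraries of different groups had r of deviations from -0.056 to 0.237 (median 0.087, above 0.1 in 7 of 15 pairs). For differently numbered libraries it was -0.250 to 0.250 (median -0.061, above 0.1 in 5 of 30 pairs). The same-numbered pairs were thus somewhat more alike, though r was low. The titles give the numbers only as replicates, and the main fit did not pair libraries by them. With a replicate block, Dnajb1 had 0.98 at 1 h (adjusted p 0.0662), Hspe1 had -0.0174 at 15 min, and 0 members passed. The 15 min group of 2 libraries limits its comparisons: when 1 is left out, the other is assumed to vary like the remaining groups.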
